A study of Homo sapiens with 12 samples.

Results

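The 45 genes described here encode lysosomal enzymes, their activators, lysosomal membrane proteins, 3 V-ATPase members, the transcription factors TFEB and TFE3, and progranulin with the sorting receptor sortilin. They were chosen by gene symbol as a functional module, with earlier results of these data known. All 45 were found among the 13310 genes of the deposited expression table. RNA sequencing of polyadenylated RNA was carried out on H9 cells, a widely used line of human embryonic stem cells, with the wild-type genotype in all 12 libraries. Undifferentiated cells in mTeSR medium (UNDIF) were compared with cells taken through neural differentiation (NEUR), in which the SMAD inhibitors A83-10 and Dorsomorphine give way to a medium for neural stem cells that holds EGF and bFGF. The other groups were differentiated in the same way with the solvent DMSO (DMSO_NEUR) or with FT671 (FT671_NEUR), a compound that blocks USP7, an enzyme that takes ubiquitin off other proteins. Each of the 4 groups had 3 libraries. The labels state neither how much FT671 was used nor for how long. They also leave unsaid if the 3 libraries of a group came from separate cultures, and p-values therefore cover just the spread between libraries, which may be technical. The treatment field of the DMSO samples reads undifferentiated while their titles read neural, and the titles were followed.

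Lysosomes are acidic organelles in which proteins, lipids, glycogen and glycosaminoglycans are broken down. Most soluble lysosomal enzymes receive a mannose 6-phosphate tag in the Golgi and are carried to the lysosome by its receptors, while the V-ATPase pumps protons into the lumen and heavily glycosylated membrane proteins line it. TFEB and TFE3 belong to the MiT/TFE family of transcription factors, which bind E-box sequences with the core CACGTG, known as part of the CLEAR element, near many lysosomal genes. Loss of single lysosomal enzymes causes storage disorders, many of which affect the nervous system.

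The promoters of the members were searched for this core as a description, without a test. Promoter windows of 300 bases, from 250 before to 50 after the RefSeq transcription start on GRCh38.p14, were at hand for 35 of the 45 members. The letters CACGTG, which read the same on both strands, occurred in 9 of these 35 windows (25.7%), in 7.43% of all 27305 promoters and in 9.85% of the 10077 promoters of genes in the expression table. The longer TCACGTG, which contains CACGTG and was searched on both strands, occurred in 8 members (22.9%), in 3.82% of all promoters and in 5.68% of those of genes in the table. NEU1, CTSD, CD63 and ATP6V0D1 had 1 match to CACGTG each, CLN3, GAA, MCOLN1 and CTSA had 2, and LAMP1 had 6. No match lay in the windows of TFEB, TFE3, CTSH, GM2A or SMPD1. A match is a run of letters and says nothing on its own about binding. The promoters with more than 1 match are shown with each CACGTG in capitals, 5′ to 3′ on the strand of the gene, up to 30 bases after the start. They lie at chr13:113296989-113297268 (plus strand) for LAMP1, chr19:7522534-7522653 (plus strand) for MCOLN1, chr20:45891245-45891364 (plus strand) for CTSA, chr17:80101491-80101610 (plus strand) for GAA and chr16:28492045-28492164 (minus strand) for CLN3.
LAMP1: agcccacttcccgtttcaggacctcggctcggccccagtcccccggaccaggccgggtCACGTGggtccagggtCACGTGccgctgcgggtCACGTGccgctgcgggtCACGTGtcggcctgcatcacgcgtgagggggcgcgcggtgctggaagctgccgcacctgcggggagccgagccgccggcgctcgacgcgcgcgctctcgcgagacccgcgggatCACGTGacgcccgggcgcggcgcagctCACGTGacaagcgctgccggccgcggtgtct
MCOLN1: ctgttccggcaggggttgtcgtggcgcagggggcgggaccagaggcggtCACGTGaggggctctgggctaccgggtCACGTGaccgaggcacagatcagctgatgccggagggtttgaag
CTSA: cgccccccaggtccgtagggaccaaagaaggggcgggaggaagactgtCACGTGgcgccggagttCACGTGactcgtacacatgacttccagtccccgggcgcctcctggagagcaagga
GAA: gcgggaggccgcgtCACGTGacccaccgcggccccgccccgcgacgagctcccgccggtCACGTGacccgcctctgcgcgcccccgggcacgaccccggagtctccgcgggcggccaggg
CLN3: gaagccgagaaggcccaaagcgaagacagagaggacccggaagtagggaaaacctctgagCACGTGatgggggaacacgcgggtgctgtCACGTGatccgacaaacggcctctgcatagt
All 9 genes with a match were higher with FT671 than with DMSO, and so were 30 of the 35 members with a window, beside 40.2% of all genes. With differentiation GAA, with 2 matches, was called lower (log2 fold change -0.68) and CLN3, also with 2, was not called (0.36). The other genes with a match rose there, beside 40.4% of all genes.

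Each library had between 15906471 and 17271155 reads in these 13310 genes, and values are normalized read counts, that is reads divided by 1 size factor per library. The 9 pluripotency markers in the table summed to 58350 to 59640 normalized counts in UNDIF and to at most 12870 in any other library. With FT671 against DMSO, 5 of these 9 were called higher and SOX2 and LIN28A lower, with L1TD1 at 2498 ± 405 against 74.23 ± 16.4 and ZFP42 at 848 ± 37.4 against 112.9 ± 11.5 (SD, n = 3), while POU5F1, TDGF1 and PRDM14 had means of at most 4.227. Neural progenitor markers, of which 10 of 12 were measured, summed to 15490 to 17870 in UNDIF, 46750 to 48480 in NEUR, 49540 to 51210 in DMSO_NEUR and 10840 to 11440 in FT671_NEUR, where 3 of the 10 were at 0 in all libraries. The neural label of the FT671 libraries is therefore not borne out by these markers. In NEUR against UNDIF 8 of the 10 were called higher and FABP7 and MSI1 lower, with FABP7 at 16.4 ± 2.49 against 505.7 ± 6.71. NES (25520 ± 1060) and CDH2 (11090 ± 984) made up most of the NEUR sum (SD, n = 3). Surface ectoderm, amnion and trophoblast markers (11 of 16 measured) summed to 15740 to 15900 in UNDIF, 48890 to 60570 in NEUR, 39000 to 40730 in DMSO_NEUR and 174600 to 196400 in FT671_NEUR. With differentiation 6 of the 11 were called higher and 5 lower (TFAP2A, TFAP2C, GRHL2, EPCAM and CDH1). KRT8, at 33630 ± 4340 in NEUR against 4706 ± 226 in UNDIF, and KRT18, at 10880 ± 1360 against 1099 ± 62.6, carried the NEUR sum (SD, n = 3). In DMSO_NEUR against NEUR 4 of the 11 were called lower, beside 0.391% of all genes. These calls were lost in a fit of these 2 groups only, where 0 genes passed. Mesenchyme markers (9 of 11 measured) summed to 18230 to 20280 in UNDIF and 113700 to 122100 in NEUR. Their sum was 100300 to 112300 in DMSO_NEUR and 130500 to 135000 in FT671_NEUR. Between UNDIF and NEUR, 7 of the 9 were called higher, PDGFRA lower, and THY1 did not pass. VIM (47330 ± 5680) and COL1A2 (40210 ± 2640) made up most of the NEUR sum (SD, n = 3). The collagen genes COL1A1 and COL1A2 carried the FT671 sum, the latter at 86500 ± 1400 against 38830 ± 4550 with DMSO, whereas 6 of the 9 markers were lower with FT671, among them VIM at 3844 ± 72.4 against 40750 ± 2650 (SD, n = 3). Of 8 macrophage markers, cells known for many lysosomes, AIF1 and CSF1R were measured, and their sum was 49.27 to 56.45 in UNDIF, 85.12 to 105.6 in NEUR, 64.18 to 78.17 in DMSO_NEUR and 266.5 to 340.9 in FT671_NEUR, where AIF1 was at 0 and CSF1R made up the sum. USP7 itself fell by 0.58 ± 0.06 on the log2 scale with FT671 against DMSO (limma, adjusted p = 9.51e-08), from 3940 ± 117 to 2630 ± 22.3 (SD, n = 3). In these bulk samples, fewer cells of a type and less RNA per cell cannot be told apart. Measured markers are those present in the deposited table, and how its genes were chosen is not stated.

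The lysosomal genes together took a larger share of the reads of the table after differentiation and a larger one again with FT671. Their share was 0.4869% ± 0.0057 in UNDIF, 0.6687% ± 0.0236 in NEUR, 0.6450% ± 0.0034 in DMSO_NEUR and 1.0628% ± 0.0176 in FT671_NEUR (SD, n = 3). The 4 ranges over libraries were 0.4804% to 0.4910%, 0.6546% to 0.6959%, 0.6426% to 0.6489% and 1.0441% to 1.0791%, so that the FT671 libraries lay above all others and the undifferentiated ones below all others. PSAP, the precursor of the saposins that help enzymes reach sphingolipids, was the largest contributor, with 0.1181% in UNDIF and 0.2133% in FT671_NEUR. The other 44 genes moved from 0.3687% to 0.8494% between the same groups. The median group mean of the 45 genes was 942.3 normalized counts in UNDIF, 1386.1 in NEUR, 1384.3 in DMSO_NEUR and 2433.1 in FT671_NEUR, while the median of all genes stayed between 485.0 and 511.1. Scaling by size factors by itself tends to hold the median of all genes steady.

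Per kilobase of exon, PSAP was also the most abundant member in every group, at 5494 normalized counts per kb in UNDIF and 11970 in FT671_NEUR. CLN3, a membrane protein whose loss causes juvenile Batten disease, was the lowest in every group, at 4.9 per kb in UNDIF and 23.9 in FT671_NEUR. This rank depends on the length used, which joins all annotated exons of a gene (9.86 kb for CLN3). By count TFEB was lower than CLN3 in UNDIF (means 35.83 and 48.03). The median level of the members per kb was 189.2 in UNDIF, 246.4 in NEUR, 244.6 in DMSO_NEUR and 414.5 in FT671_NEUR.

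**Figure D1:**
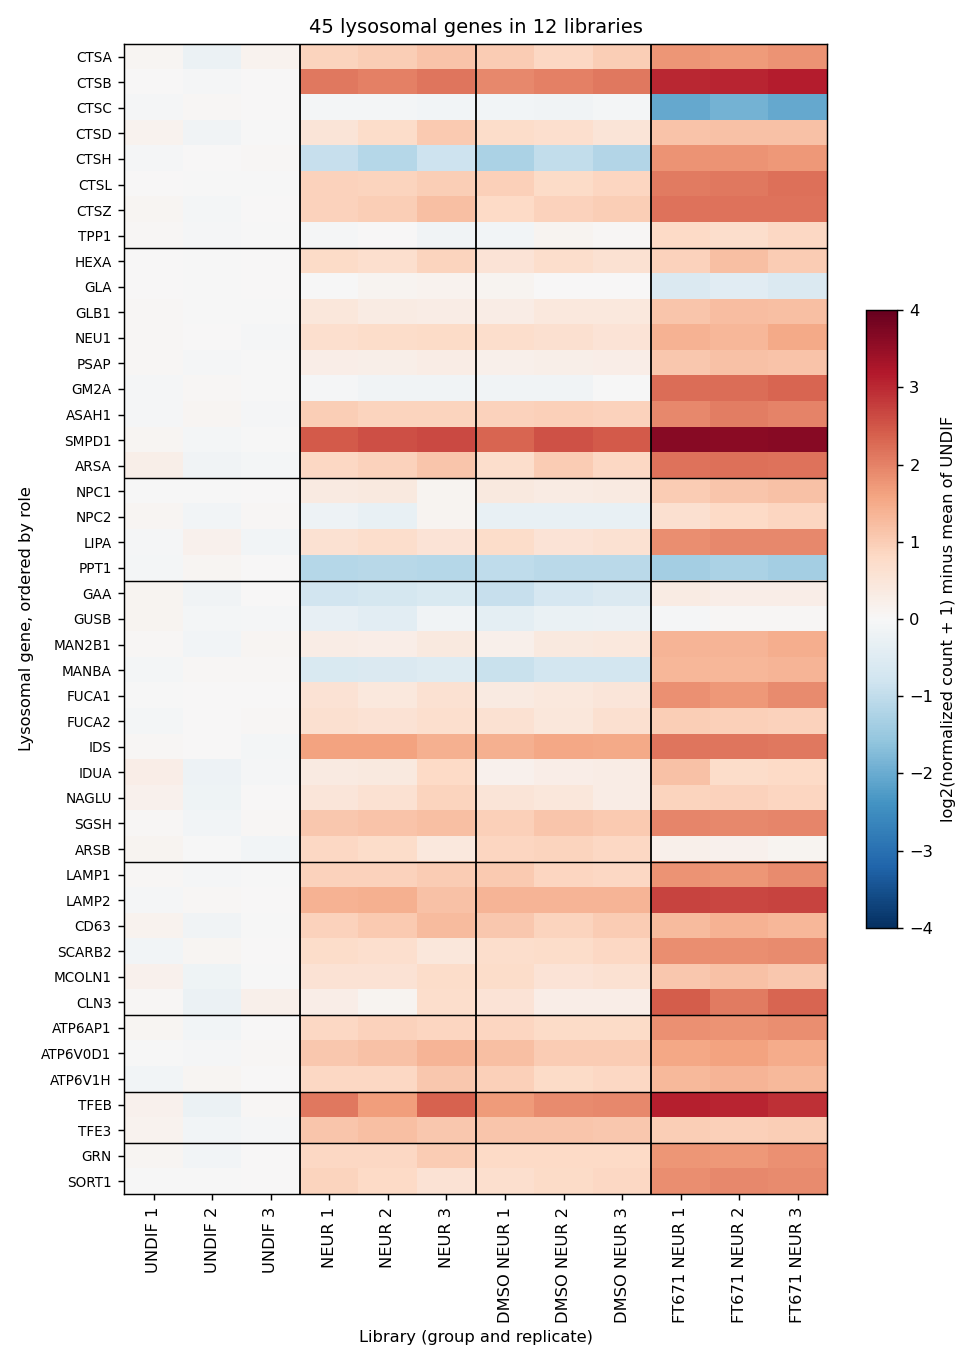
The heat map shows, for each of the 45 lysosomal genes (rows, ordered by role) and each of the 12 libraries (columns, by group), log2(normalized count + 1) minus the mean of the 3 UNDIF libraries. Red rows deepen from UNDIF over NEUR and DMSO_NEUR to FT671_NEUR for most genes, while CTSC turns blue with FT671 alone, PPT1 is blue in all differentiated groups and CTSH changes from blue to red.

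The first comparison, NEUR against UNDIF, asks what differentiation changed. Of the 45 members, 34 rose, 5 fell and 6 did not pass the test at an adjusted p of 0.05 (limma on log2(normalized count + 1), Benjamini-Hochberg over 13310 genes, no fold minimum). In the same comparison 82.0% of all genes passed, with 40.4% of all genes higher and 41.6% lower, so a passed test was common in this comparison. The median log2 fold change of the members was 0.66, beside -0.03 over all genes, and member values ran from -1.13 to 2.56. A rise of at least 2-fold was seen in 11 members, beside 15.4% of all genes. The libraries of the groups did not overlap in 34 members that were higher and 7 that were lower in NEUR, beside 39.2% and 41.1% of all genes. The largest rises were those of SMPD1, CTSB and TFEB, and the falls were those of PPT1, CTSH, GAA, MANBA and GUSB.

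The comparison of FT671_NEUR with DMSO_NEUR asks what USP7 inhibition changed during the same differentiation. Here 40 members rose, 4 fell and TFE3 did not pass the test, beside 79.8% of all genes that passed (40.2% higher and 39.7% lower). The median log2 fold change was 0.90 for the members and 0.01 for all genes, and the members ran from -1.89 to 2.92. A rise of at least 2-fold was seen in 20 members, beside 16.4% of all genes. The libraries did not overlap in 40 members that were higher and 5 that were lower with FT671, beside 42.8% and 41.9% of all genes. CTSH, GM2A, MANBA and CLN3 rose most, and CTSC, ARSB, GLA and PPT1 fell. In the same comparison all 11 measured surface ectoderm, amnion and trophoblast markers rose and 9 of 10 neural progenitor markers fell. The pluripotency and mesenchyme markers moved both ways. Of the 16 surface ectoderm, amnion and trophoblast markers listed, those absent from the table could not be counted. A marker may be in the table only through the group where it is high, so the 11 rises are a description and not a test. The part of these cell type markers in the result was not tested.

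Both transcription factors rose with differentiation, and TFEB alone rose with FT671. TFEB, a master regulator of lysosomal genes, gave normalized counts of 40.2, 30.1 and 37.2 in UNDIF, 157, 115 and 186 in NEUR, 118, 134 and 138 in DMSO_NEUR and 315, 302 and 278 in FT671_NEUR. No library of the other groups overlapped with UNDIF, and the 3 FT671 libraries were above all the rest. TFEB rose by 2.05 ± 0.17 (SE) on the log2 scale with differentiation, or 4.13-fold (limma, adjusted p = 6.17e-09), and by 1.20 ± 0.17 with FT671 over DMSO (adjusted p = 5e-06). TFE3, its close relative, had 1008, 840.2 and 878 in UNDIF, 1959.6, 2094 and 1928 in NEUR, 1948, 1949 and 1928 in DMSO_NEUR and 1780.3, 1761 and 1785 in FT671_NEUR. Its differentiated libraries were all well above the undifferentiated ones, and the FT671 libraries lay slightly below the NEUR and DMSO_NEUR ones. TFE3 rose by 1.14 ± 0.07 with differentiation (adjusted p = 1.8e-10). With FT671 its log2 fold change of -0.13 missed the threshold (adjusted p = 0.103), and it became a fall with TMM scaling (-0.18, adjusted p = 0.0277), with library totals (-0.25, adjusted p = 0.00281) and with a fit of these 2 groups only (-0.13, adjusted p = 0.0096).

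**Figure D2:**
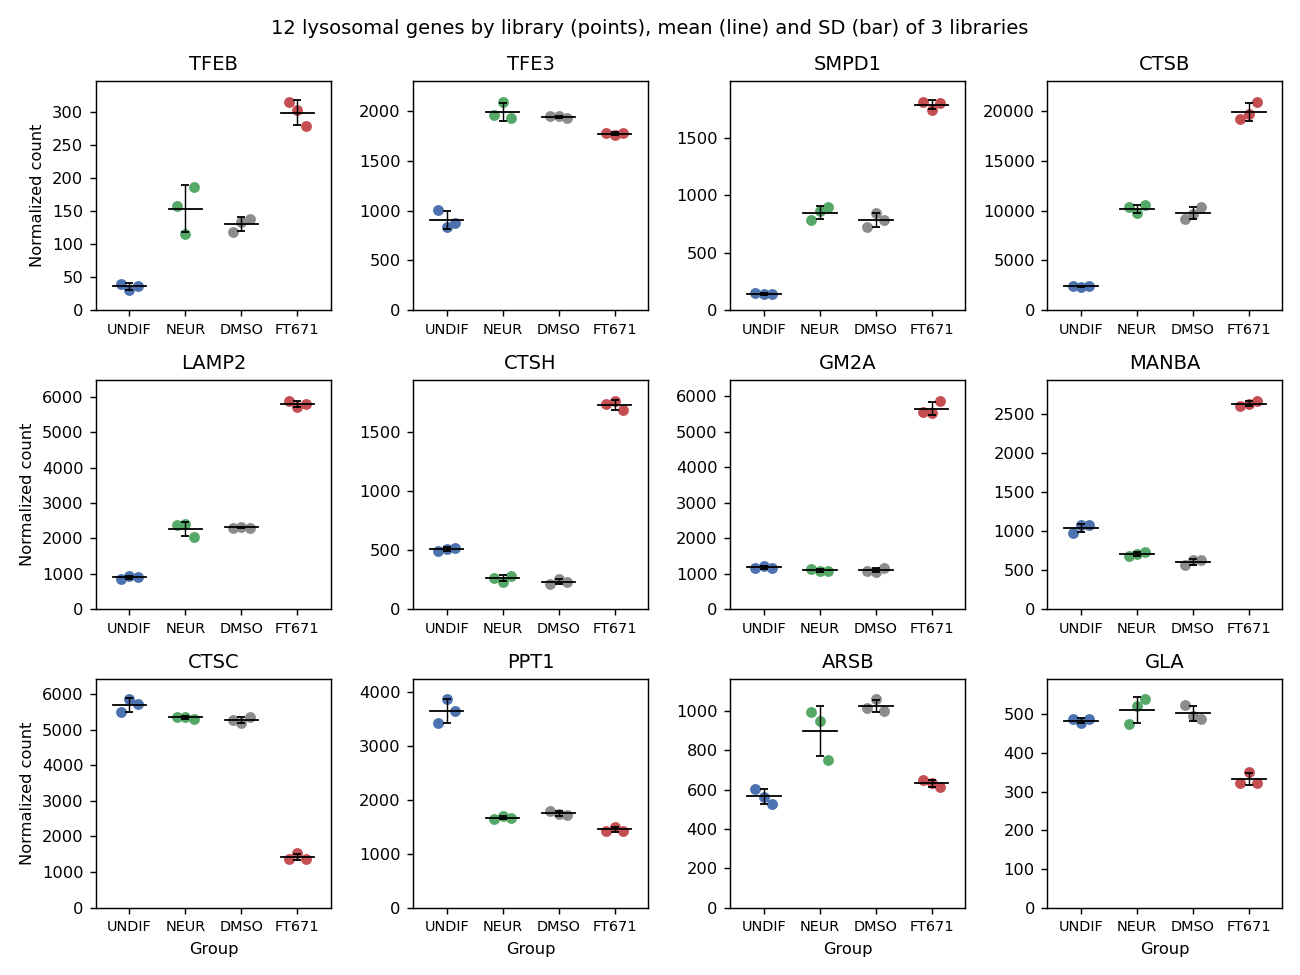
Normalized read counts of 12 lysosomal genes are plotted by group, with a point for each library, a line for the mean and a bar for the SD of 3 libraries, on axes that start at 0. TFEB, SMPD1, CTSB and LAMP2 are higher in NEUR than in UNDIF and higher with FT671 than with DMSO. CTSH, GM2A and MANBA are high in the FT671 libraries alone, CTSC and GLA are low there alone, and PPT1 drops on differentiation.

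Among the 8 proteases, 5 rose, 1 fell and 2 did not pass with differentiation (median log2 fold change 0.85), and 7 rose and 1 fell with FT671 (median 0.92). CTSB, cathepsin B, a cysteine protease of broad range, had 2441, 2338 and 2411 in UNDIF, 10341, 9767 and 10550.4 in NEUR, 9145, 9716 and 10352 in DMSO_NEUR and 19219, 19686 and 20956 in FT671_NEUR. The FT671 libraries were the highest and the undifferentiated ones the lowest, without overlap. CTSB rose by 2.09 ± 0.07 with differentiation (limma, adjusted p = 2.72e-14) and by 1.04 ± 0.07 with FT671 (adjusted p = 2.22e-10). CTSH, an aminopeptidase of the same family, went the opposite way with differentiation, with 491, 509.9 and 522 in UNDIF, 266, 232 and 284 in NEUR, 210.1, 254 and 226 in DMSO_NEUR and 1746, 1771 and 1689 in FT671_NEUR. Differentiated libraries with no FT671 were all lower than undifferentiated ones, and FT671 libraries were all several times higher than either. It fell by 0.96 ± 0.09 with differentiation (adjusted p = 5.61e-08) and rose by 2.92 ± 0.09 with FT671 (7.54-fold, adjusted p = 3.58e-14), the largest change among the 45 genes in that comparison. CTSC, dipeptidyl peptidase I, which activates granule serine proteases in immune cells, counted 5484, 5846 and 5730.1 in UNDIF, 5360.5, 5364 and 5299.6 in NEUR, 5281, 5179 and 5349 in DMSO_NEUR and 1379, 1528 and 1364 in FT671_NEUR. The 9 libraries without FT671 were close together, and the FT671 libraries stood far below them. CTSC did not pass the test with differentiation (log2 fold change -0.09, adjusted p = 0.179, and -0.23 with adjusted p = 0.00258 under library totals) and fell by 1.89 ± 0.06 with FT671 (adjusted p = 3.92e-14).

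The other proteases rose in both comparisons except for 1. CTSL, a cysteine protease with related pseudogenes, went from 876 ± 11.0 normalized counts in UNDIF to 1677 ± 56.6 in NEUR and from 1599.6 ± 104 in DMSO_NEUR to 3842 ± 205 in FT671_NEUR (SD, n = 3). CTSZ, a carboxypeptidase, rose by 1.04 ± 0.08 and 1.28 ± 0.08 in the same comparisons. The protective protein CTSA, which shields beta-galactosidase and neuraminidase, rose by 1.01 ± 0.10 and 0.80 ± 0.10. The aspartic protease CTSD rose by 0.76 ± 0.11 and 0.52 ± 0.11. TPP1, a tripeptidyl peptidase lost in a late infantile form of Batten disease, did not pass with differentiation (-0.06, adjusted p = 0.464; under library totals it was called lower at -0.20, adjusted p = 0.0165). It rose by 0.76 ± 0.07 with FT671, from 1269 ± 90.5 to 2154 ± 101 normalized counts (limma, adjusted p = 4.21e-08).

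Of the 9 sphingolipid enzymes and activators, 7 rose and 2 did not pass with differentiation (median log2 fold change 0.73), and 8 rose and 1 fell with FT671 (median 0.89). SMPD1, acid sphingomyelinase, the enzyme deficient in Niemann-Pick types A and B, had 151, 136 and 142 in UNDIF, 784, 863 and 899 in NEUR, 721, 844 and 788 in DMSO_NEUR and 1813, 1742 and 1806 in FT671_NEUR. It was low in every undifferentiated library and highest in every FT671 library, with no overlap. SMPD1 rose by 2.56 ± 0.08 with differentiation (5.88-fold, limma adjusted p = 3.68e-14), the largest member change there, and by 1.19 ± 0.08 with FT671 (adjusted p = 7.02e-10). GM2A, the activator that presents ganglioside GM2 to hexosaminidase A, gave 1144, 1216 and 1165 in UNDIF, 1131, 1061 and 1065 in NEUR, 1061, 1056 and 1169.7 in DMSO_NEUR and 5555, 5539 and 5883 in FT671_NEUR. The first 3 groups lay close together, and every FT671 library was several times higher. It rose by 2.37 ± 0.06 with FT671 (5.17-fold, adjusted p = 5.62e-15), while differentiation gave -0.11 (adjusted p = 0.113; -0.25 and 0.00174 under library totals). ARSA, which removes sulfate from sulfatide, a lipid of myelin, had 314, 239.9 and 254 in UNDIF, 475, 512 and 584 in NEUR, 435, 544 and 478 in DMSO_NEUR and 1196, 1222 and 1206 in FT671_NEUR. Its groups followed each other upward with the untreated and solvent groups overlapping. ARSA rose by 0.96 ± 0.11 (adjusted p = 4.79e-07) and 1.32 ± 0.11 (adjusted p = 8.73e-09). GLA, alpha-galactosidase A, deficient in Fabry disease, counted 486, 477 and 487 in UNDIF, 474, 521 and 538 in NEUR, 523, 494 and 488 in DMSO_NEUR and 323, 350.4 and 323 in FT671_NEUR. The FT671 libraries were the lowest and the other 9 overlapped. GLA fell by 0.59 ± 0.08 with FT671 (adjusted p = 4.16e-06), and differentiation gave 0.08 (adjusted p = 0.383).

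The remaining sphingolipid genes rose in both comparisons. PSAP increased by 0.26 ± 0.07 with differentiation, a call lost under library totals (0.12, adjusted p = 0.0805), and by 0.89 ± 0.07 with FT671. The acid ceramidase gene ASAH1 rose by 0.93 ± 0.06 and 1.05 ± 0.06, the beta-galactosidase gene GLB1 by 0.35 ± 0.07 and 0.80 ± 0.07, and the neuraminidase gene NEU1 by 0.73 ± 0.07 and 0.77 ± 0.07. HEXA, the alpha subunit of hexosaminidase A lost in Tay-Sachs disease, rose by 0.78 ± 0.09 and 0.42 ± 0.09. GM2A and HEXA act on the same ganglioside, and with FT671 the former reached 5659 ± 194 normalized counts against 1095 ± 64.3 with DMSO, while the latter reached 748 ± 79.3 against 558 ± 33.2 (SD, n = 3).

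Cholesterol and lipid handling was mixed under differentiation, with 2 rises, 1 fall and 1 gene that did not pass (median log2 fold change 0.07). With FT671, 3 of these 4 genes rose and 1 fell (median 0.90). LIPA, the acid lipase that frees cholesterol and fatty acids from cholesteryl esters, had 859, 1001 and 814 in UNDIF, 1351, 1454 and 1298 in NEUR, 1491, 1298 and 1364 in DMSO_NEUR and 3233, 3359 and 3356 in FT671_NEUR. FT671 libraries were all above the rest, and undifferentiated libraries were all below the rest. It rose by 0.62 ± 0.08 (limma, adjusted p = 2.23e-06) and 1.26 ± 0.08 (adjusted p = 2.64e-10). PPT1, the thioesterase that removes palmitate from proteins, gave 3414, 3855 and 3641 in UNDIF, 1639, 1693 and 1662 in NEUR, 1797, 1729 and 1709 in DMSO_NEUR and 1425, 1495 and 1422 in FT671_NEUR. Undifferentiated libraries were the highest by far and FT671 libraries the lowest, with the 6 others between them. PPT1 fell by 1.13 ± 0.06 with differentiation (adjusted p = 4.11e-11) and by 0.27 ± 0.06 with FT671 (adjusted p = 0.00085), the one member that fell in both comparisons. The cholesterol exporters NPC1 and NPC2 differed under differentiation. NPC1 rose by 0.29 ± 0.08, a call lost under library totals (0.15, adjusted p = 0.0767), and NPC2 did not pass at -0.14 (adjusted p = 0.183). Without NEUR replicate 3, which counted 1766 against 1410.0 and 1329.7 in its fellow libraries, NPC2 was called lower (-0.26, adjusted p = 0.00348), as it was under library totals (-0.28, adjusted p = 0.0138). Both rose with FT671, NPC1 by 0.73 ± 0.08 and NPC2 by 1.07 ± 0.09.

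The 11 enzymes of glycogen, glycans and glycosaminoglycans split into 8 rises and 3 falls with differentiation (median log2 fold change 0.54) and 10 rises and 1 fall with FT671 (median 0.67). IDS, which removes sulfate from dermatan and heparan sulfate and is deficient in Hunter syndrome, had 1187, 1183 and 1106 in UNDIF, 3516, 3518 and 3075 in NEUR, 3112, 3399.7 and 3317 in DMSO_NEUR and 5089.6, 5111 and 5055 in FT671_NEUR. Its FT671 libraries were the highest, and the undifferentiated ones were all far below every other. IDS rose by 1.54 ± 0.07 (limma, adjusted p = 1.72e-12) and 0.64 ± 0.07 (adjusted p = 1.71e-07). SGSH, the heparan sulfamidase, gave 407, 359 and 405 in UNDIF, 827, 861 and 894 in NEUR, 753, 844 and 798 in DMSO_NEUR and 1519, 1469 and 1506 in FT671_NEUR. It rose in both comparisons without overlap, by 1.14 ± 0.07 (adjusted p = 3.71e-10) and 0.91 ± 0.07 (adjusted p = 7.3e-09). FUCA1, an alpha-fucosidase, counted 283, 284 and 284 in UNDIF, 425, 382 and 436 in NEUR, 364, 385 and 395 in DMSO_NEUR and 1011, 952 and 1048 in FT671_NEUR. The undifferentiated libraries were tightly grouped and the FT671 libraries stood well above the rest. FUCA1 rose by 0.54 ± 0.08 (adjusted p = 1.29e-05) and 1.39 ± 0.08 (adjusted p = 8.69e-11).

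MANBA, beta-mannosidase, and GAA, the acid alpha-glucosidase that breaks down glycogen, fell with differentiation and rose with FT671. MANBA had 982, 1075 and 1073 in UNDIF, 678, 704 and 734 in NEUR, 561, 623 and 630.3 in DMSO_NEUR and 2612, 2629.5 and 2678 in FT671_NEUR. NEUR and DMSO_NEUR libraries were all below the undifferentiated ones and FT671 libraries were all above them. It fell by 0.56 ± 0.07 with differentiation (limma, adjusted p = 1.36e-06) and rose by 2.13 ± 0.07 with FT671 (4.37-fold, adjusted p = 6.04e-14). GAA gave 1629, 1380.2 and 1538 in UNDIF, 896, 929.5 and 1000.1 in NEUR, 797, 951 and 1017 in DMSO_NEUR and 1905, 1800.4 and 1838 in FT671_NEUR. Its undifferentiated and FT671 libraries were both above all NEUR and DMSO_NEUR libraries. GAA fell by 0.68 ± 0.09 (adjusted p = 2.09e-06) and rose by 1.01 ± 0.09 (adjusted p = 1.66e-08). GUSB, beta-glucuronidase, moved the same way on a smaller scale, falling by 0.30 ± 0.08 and rising by 0.31 ± 0.08. ARSB, which removes sulfate from dermatan and chondroitin sulfate, showed the reverse order, with 605, 565 and 527 in UNDIF, 993, 948 and 753 in NEUR, 1017, 1059 and 1002 in DMSO_NEUR and 649, 636 and 612 in FT671_NEUR. Its solvent libraries were the highest, and FT671 libraries lay only just above the undifferentiated ones. ARSB rose by 0.66 ± 0.09 with differentiation (adjusted p = 6.36e-06) and fell by 0.70 ± 0.09 with FT671 (adjusted p = 3.31e-06).

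The other 4 genes of this group rose in both comparisons. The alpha-mannosidase gene MAN2B1 rose by 0.32 ± 0.08 and 1.06 ± 0.08, and the second fucosidase gene FUCA2 by 0.63 ± 0.07 and 0.38 ± 0.07. NAGLU, which acts on heparan sulfate, rose by 0.66 ± 0.11 and 0.47 ± 0.11. IDUA, the iduronidase deficient in Hurler syndrome, had the lowest counts of the enzymes here, 106, 77.2 and 85.5 in UNDIF and 203, 149 and 154 in FT671_NEUR. It rose by 0.52 ± 0.16 with differentiation (limma, adjusted p = 0.00882), a call lost without NEUR replicate 3 (0.37, adjusted p = 0.0506), and by 0.67 ± 0.16 with FT671 (adjusted p = 0.00148).

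All 6 membrane proteins had positive log2 fold changes with differentiation, where 5 passed (median 0.79), and all 6 rose with FT671 (median 1.01). LAMP2, a major lining protein that also serves chaperone-mediated autophagy, had 858, 928 and 902 in UNDIF, 2363, 2391 and 2025 in NEUR, 2302, 2315 and 2301 in DMSO_NEUR and 5894, 5715 and 5807 in FT671_NEUR. UNDIF libraries lay below all others and FT671 libraries above all others, and untreated and solvent libraries overlapped. LAMP2 rose by 1.33 ± 0.07 with differentiation (limma, adjusted p = 1.53e-11) and by 1.33 ± 0.07 with FT671 (adjusted p = 1.43e-11), an equal step in each. CLN3 counted 48.8, 40.5 and 54.9 in UNDIF, 57.7, 51.9 and 77.7 in NEUR, 70.0, 58.1 and 57.6 in DMSO_NEUR and 258, 204 and 244 in FT671_NEUR. Only the FT671 libraries stood apart, at several times the level of the others. It rose by 1.91 ± 0.18 with FT671 (3.75-fold, adjusted p = 3.97e-08). Differentiation gave 0.36 with an SE of 0.18 (adjusted p = 0.0724), which passed without UNDIF replicate 3 (0.46, adjusted p = 0.0454) or without NEUR replicate 2 (0.48, adjusted p = 0.0331).

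LAMP1, the other major lining protein, whose promoter carried 6 copies of CACGTG, went from 3144 ± 129 in UNDIF to 6102 ± 252 in NEUR and 11101 ± 459.6 in FT671_NEUR (SD, n = 3). It rose by 0.96 ± 0.07 and 0.90 ± 0.07. SCARB2, a membrane receptor of late endosomes and lysosomes, rose by 0.62 ± 0.08 and 1.11 ± 0.08. The tetraspanin CD63 rose by 1.08 ± 0.09 with differentiation and by 0.33 ± 0.09 with FT671, where 9684, 10551 and 10275 counts stood against 8607, 7549 and 8211 with DMSO. MCOLN1, the calcium channel TRPML1, rose by 0.63 ± 0.11 and 0.49 ± 0.11.

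All 3 V-ATPase members rose in both comparisons, with a median log2 fold change of 0.92 for differentiation and 0.48 for FT671. ATP6V0D1, a subunit of the membrane sector, had 866, 852 and 906 in UNDIF, 1862, 1967 and 2243 in NEUR, 2018, 1780.2 and 1773 in DMSO_NEUR and 2554, 2694 and 2457 in FT671_NEUR. Undifferentiated libraries were the lowest and FT671 libraries the highest, without overlap. It rose by 1.21 ± 0.08 (limma, adjusted p = 2.97e-10) and 0.47 ± 0.08 (adjusted p = 3.5e-05). ATP6AP1, an accessory protein of the pump, gave 1587, 1403 and 1512 in UNDIF, 2633, 2811 and 2733 in NEUR, 2696, 2562 and 2549 in DMSO_NEUR and 5342, 5245 and 5455 in FT671_NEUR. It showed the same order with a wider step at FT671, by 0.86 ± 0.06 (adjusted p = 1.34e-09) and 1.04 ± 0.06 (adjusted p = 1.15e-10). ATP6V1H, a subunit of the sector that splits ATP, rose by 0.92 ± 0.08 and 0.48 ± 0.08.

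Progranulin and its receptor rose together. GRN, a secreted and lysosomal protein whose loss causes frontotemporal dementia, had 2493, 2165 and 2366 in UNDIF, 4146, 4159 and 4705 in NEUR, 4025, 4023 and 4032 in DMSO_NEUR and 7926, 7745 and 8289 in FT671_NEUR. Solvent libraries were nearly equal, just below the untreated neural libraries, and FT671 libraries were all above the rest. GRN rose by 0.89 ± 0.07 (limma, adjusted p = 3.22e-09) and 0.99 ± 0.07 (adjusted p = 8.08e-10). SORT1, sortilin, which takes progranulin into cells, gave 2133, 2132 and 2156 in UNDIF, 3939.7, 3681 and 3196 in NEUR, 3422, 3662 and 3803 in DMSO_NEUR and 7822, 8044 and 7861 in FT671_NEUR. Its order was the same except that untreated and solvent libraries overlapped. SORT1 rose by 0.75 ± 0.07 (adjusted p = 5.93e-08) and 1.12 ± 0.07 (adjusted p = 2.83e-10).

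The comparisons of NEUR with UNDIF and of FT671_NEUR with DMSO_NEUR share no library, so the values of each gene can be set side by side. In all, 32 of the 45 genes rose in both, beside 17.2% of all genes, and of these 16 changed more with FT671, 15 more with differentiation and LAMP2 equally at 2 decimals. CTSH, GAA, GUSB and MANBA fell with differentiation and rose with FT671, ARSB rose with differentiation and fell with FT671, and PPT1 fell in both. CLN3, GM2A, NPC2 and TPP1 did not pass with differentiation and rose with FT671. CTSC and GLA did not pass with differentiation and fell with FT671. TFE3 rose with differentiation and did not pass with FT671. The comparisons are between separate groups of libraries, and no order in time was measured. In 29 members all UNDIF libraries lay below all NEUR and DMSO_NEUR libraries, which in turn lay below all FT671_NEUR libraries, an order found in 15.29% of all genes. The 3 FT671 libraries were above all 9 others in 36 members, beside 29.57% of all genes, and below all 9 others in CTSC, GLA and PPT1.

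**Figure D3:**
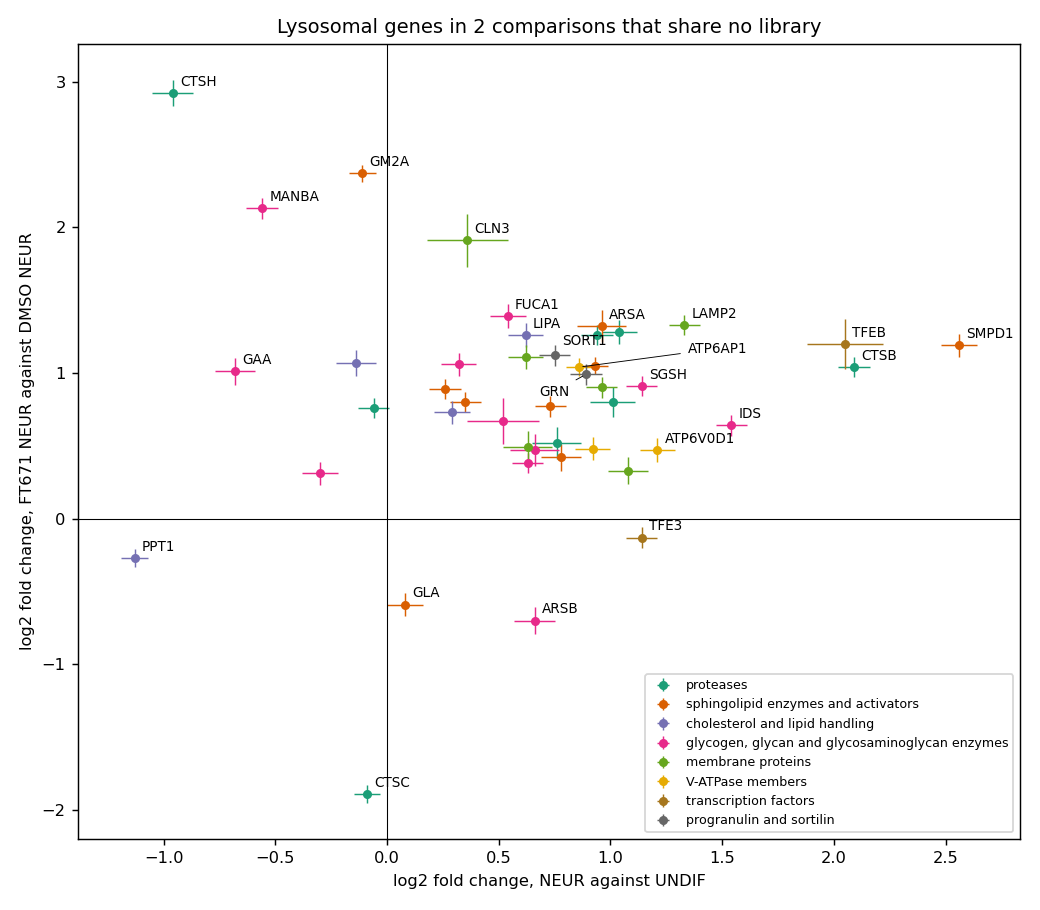
Each point is 1 of the 45 lysosomal genes, with its log2 fold change in NEUR against UNDIF on the horizontal axis and in FT671_NEUR against DMSO_NEUR on the vertical axis. Bars are the limma SE and colors the role, and most points lie in the upper right while CTSH, MANBA, GAA, GUSB, GM2A, NPC2 and TPP1 lie in the upper left and PPT1, CTSC, GLA, ARSB and TFE3 lie below 0 on the vertical axis.

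The solvent alone was tested by DMSO_NEUR against NEUR, where 0 of the 45 members passed in limma at an adjusted p of 0.05, beside 0.398% of all genes (0.00751% higher and 0.391% lower). Libraries did not overlap in 2 members that were higher and 3 that were lower with DMSO, beside 5.54% and 6.78% of all genes. At an unadjusted p of 0.05, 3 members passed, beside 7.96% of all genes, and edgeR and DESeq2 on the recovered reads also called 0 members. The median log2 fold change of the members was -0.05, with values from -0.28 for IDUA to 0.20 for ARSB, and the SE of single members ran from 0.06 to 0.18. A test that misses the threshold does not show that the groups were equal. This comparison shares the NEUR libraries with the first one and the DMSO_NEUR libraries with the second.

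FT671_NEUR against UNDIF shares libraries with the comparisons given before it and places the FT671 level against the starting level. Here 40 members were higher, 3 were lower and 2 did not pass, beside 88.0% of all genes that passed (44.0% higher and 43.9% lower). The median log2 fold change was 1.41 for the members and 0.00 for all genes, and 33 members were at least 2-fold higher, beside 23.8% of all genes. The libraries did not overlap in 41 members that were higher and 3 that were lower, beside 45.0% and 45.2% of all genes. SMPD1 differed most, by 3.63 ± 0.08 or 12.4-fold (limma, adjusted p = 1.9e-16), followed by CTSB at 3.06, TFEB at 3.03 and LAMP2 at 2.70. CTSC was lower by 2.00 ± 0.06, PPT1 by 1.33 ± 0.06 and GLA by 0.54 ± 0.08. GUSB at 0.01 (adjusted p = 0.923) and ARSB at 0.16 (adjusted p = 0.114) did not pass, so for these genes the test found no difference from the undifferentiated level. Under library totals GUSB was called lower (-0.26, adjusted p = 0.00803) and GAA lost its call (0.02, adjusted p = 0.852).

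Further lysosomal genes outside the 45, in lists written with earlier results of these data known, were counted in the same way. Their counts are to be read beside all genes, of which 40.4% rose and 41.6% fell with differentiation and 40.2% rose and 39.7% fell with FT671. Of 33 other lysosomal proteins, 23 rose, 4 fell and 6 did not pass with differentiation (median log2 fold change 0.45), and 25 rose, 5 fell and 3 did not pass with FT671 (median 0.56). With differentiation the gene of the heparan acetyltransferase HGSNAT rose by 1.58 ± 0.08. With FT671 the largest changes were those of the amidase NAAA (3.00 ± 0.16), the sialic acid exporter SLC17A5 (1.97 ± 0.09), the acid nuclease DNASE2 (1.86 ± 0.09) and the mannosidase MAN2B2 (1.72 ± 0.08). CTSV, a cathepsin close to CTSL, was the one gene of all these lists that passed with the solvent. It had 858.1 ± 76.8 in DMSO_NEUR against 1194 ± 75.7 in NEUR (limma, adjusted p = 0.00693). This call was lost in a fit of these 2 groups only, where 0 genes passed.

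Of 16 other V-ATPase subunits, 13 rose and 3 did not pass with differentiation (median log2 fold change 0.49), led by ATP6V1B1 (3.90 ± 0.16), TCIRG1 (1.34 ± 0.12), ATP6V0E1 (0.96 ± 0.08) and ATP6V1B2 (0.92 ± 0.07). With FT671, 11 rose, 2 fell and 3 did not pass (median 0.58). ATP6V1G2, a subunit known from neurons, fell by 2.54 ± 0.16, from 131.4 ± 12.1 to 21.86 ± 2.59, while TCIRG1 (1.52 ± 0.12), ATP6V0E1 (1.12 ± 0.08) and ATP6V0A1 (0.80 ± 0.06) rose.

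The 18 genes of mannose 6-phosphate tagging and sorting gave 12 rises, 5 falls and 1 that did not pass with differentiation (median log2 fold change 0.43). The sorting receptor SORL1 fell by 2.03 ± 0.11, and the mannose 6-phosphate receptor IGF2R (1.14 ± 0.10), the uncovering enzyme NAGPA (1.11 ± 0.13) and the retromer subunit VPS29 (1.05 ± 0.07) rose. With FT671, 8 rose, 2 fell and 8 did not pass (median 0.15), so that the share that rose, 44.4%, was near the 40.2% of all genes and the share that passed, 55.6%, was below the 79.8% of all genes. The adaptor subunit AP1S1 (1.07 ± 0.09) and both genes of the tagging enzyme, GNPTG (0.98 ± 0.11) and GNPTAB (0.89 ± 0.11), rose, and the sorting adaptor GGA2 fell by 1.05 ± 0.06.

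Of 20 genes of mTORC1, Ragulator and MiT/TFE control, 13 rose, 2 fell and 5 did not pass with differentiation (median log2 fold change 0.33), and 9 rose, 6 fell and 5 did not pass with FT671 (median 0.14), where 45% rose, near the 40.2% of all genes. MITF, the family member known from pigment cells, rose by 3.24 ± 0.20 with differentiation, from 8.49 ± 1.97 to 88.2 ± 14.4 normalized counts, and by 0.97 ± 0.20 with FT671 over DMSO. The Rag GTPases RRAGC (1.30 ± 0.08) and RRAGA (0.92 ± 0.07), which recruit mTORC1 to the lysosome, and FNIP2 (1.00 ± 0.11) rose with differentiation. With FT671 the folliculin gene FLCN (0.78 ± 0.09) and the scaffold gene LAMTOR3 (0.80 ± 0.10) rose and FNIP2, the partner of folliculin, fell by 0.79 ± 0.11.

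Of 33 autophagy genes, 24 rose, 4 fell and 5 did not pass with differentiation (median log2 fold change 0.40), and 23 rose, 2 fell and 8 did not pass with FT671 (median 0.32). The cargo receptors OPTN (2.08 ± 0.08) and SQSTM1 (1.63 ± 0.07) led the former, with GABARAP (1.32 ± 0.21) and the protease ATG4A (1.19 ± 0.08). In the latter the ubiquitin-like GABARAPL1 (1.99 ± 0.08) and MAP1LC3A (1.93 ± 0.17), which are joined to autophagosome membranes, came first, followed by WIPI1 (1.60 ± 0.10) and the autophagy inhibitor RUBCN (0.90 ± 0.08).

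**Figure D4:**
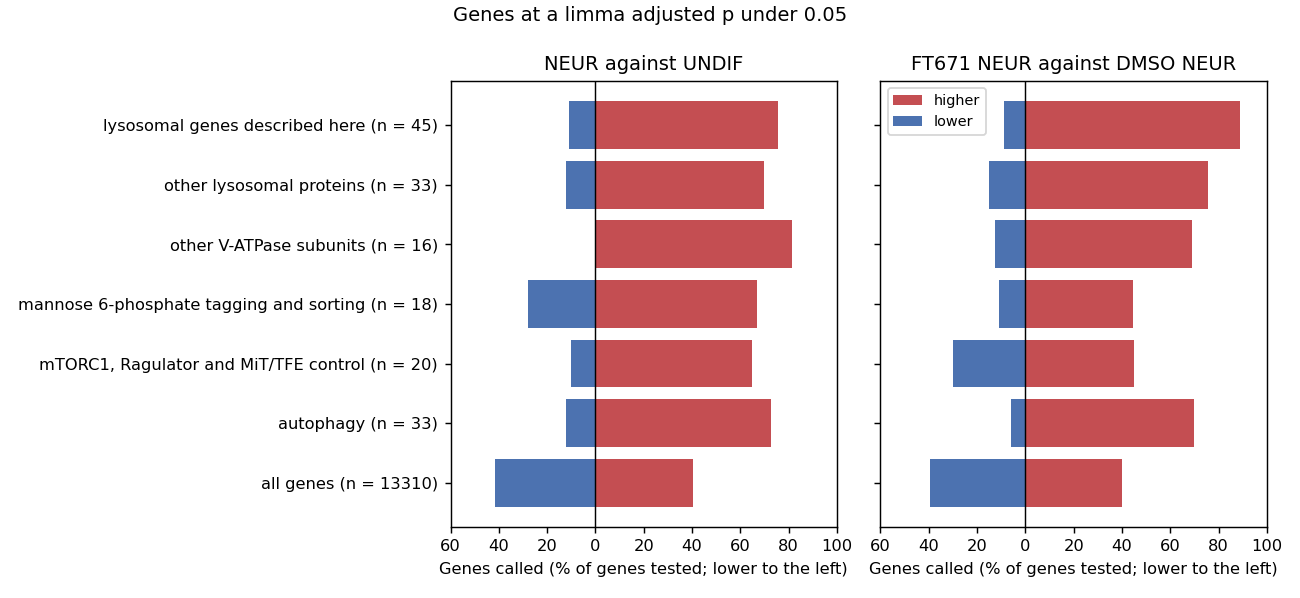
Bars give the percentage of tested genes at a limma adjusted p under 0.05, higher to the right and lower to the left of 0, for the 45 lysosomal genes, the 5 further lists and all 13310 genes, in both comparisons. Higher calls outnumber lower calls in every list, while they are about equal over all genes (40.4% and 41.6%, then 40.2% and 39.7%).

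The authors' deposited table gives an FDR for undifferentiated against neural cells, which was under 0.05 for 39 of the 45 members and for 82% of all genes. These 39 were the same genes that limma called here, and CLN3, CTSC, GLA, GM2A, NPC2 and TPP1 were the 6 at 0.05 or more. Values of GUSB, IDS and CTSL are uncertain where reads are shared with their pseudogenes, and IDUA overlaps SLC26A1 on the other strand, because the handling of such reads and of strand was not stated in the sources used here. NEUR replicate 3 lay above both its fellow libraries in 30 members and below both in 12, beside 42.3% and 42.1% of all genes, with a median member deviation of 0.10 on the log2 scale.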

How the data were processed

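Polyadenylated RNA of 12 H9 libraries was sequenced. Per the submitters' processing notes, the tools were STAR, HTSeq, DESeq2 and R 4.3.1, and the genome build was hg19. Parameters, annotation, strand handling and the choice of genes are not given in the sources used here. The deposited signal is a value made by the authors, each gene's read count divided by 1 size factor per library, plus 1. This was tested on the values: after subtraction of 1, 100% were whole multiples of 1 step within a tolerance of 0.001 reads (largest deviation 4.35e-05), which gave 15906471 to 17271155 reads per library and size factors of 0.942 to 1.08. These totals cover the 13310 genes of the table and not the full depth. One deposited p-value column holds an FDR by the authors for undifferentiated versus neural cells, from a test that is not stated. A further 32 of 47 columns were not used. The sheet's own title mentions a USP7 heterozygote, but wild type was taken from the labels.

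Each gene was tested, two-sided, with limma 3.58.1 (R 4.3.3) on log2(normalized count + 1), fitting 4 group means to all 12 libraries at once, with empirical Bayes variances and a trend. Fold changes are on that scale, errors are SE of the fit and SD is over 3 libraries. The Benjamini-Hochberg adjustment ran over 13310 genes per comparison, and genes were called under 0.05. The step was run on simulated counts in which few genes changed and the size factors were given. That run could not test the scaling or a setting in which most genes change. No filter was applied, since the smallest gene mean was 12.2 normalized counts. Replicates correlated at 0.988 to 0.9948 across genes, and all pairs differed by more than sampling noise. Alternatives were TMM, library totals, recomputed median-ratio factors, pseudocounts of 0.5 and 5, a mean of at least 100, edgeR 4.0.16, DESeq2 1.42.0, 2 groups only, a replicate block and leaving out each library. Exon lengths were the union of GENCODE v29 exons, and promoters came from RefSeq on GRCh38.p14, which served for lengths and letters only because the authors aligned to hg19.

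The 45 members, the role groups and the other gene lists were chosen with earlier results of these data known. Named in full were, per role group, the called member with the largest rise and fall, the 8 largest changes of each comparison, and TFEB and TFE3, with up to 4 called genes per further list. Some genes that this rule names are not reported here. No test over lists was run, and counts are given beside those of all genes.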

Additional observations from a re-analysis of the deposited data

How the results depend on the processing

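Over 16 alternatives for each comparison, 36 of the 39 members called in NEUR against UNDIF, all 44 called in FT671_NEUR against DMSO_NEUR and 42 of the 43 called in FT671_NEUR against UNDIF kept their call, and no member changed sign with a call. All 45 stayed uncalled in DMSO_NEUR against NEUR. Counts of members moved by over 1.5 times in 1 case: with library totals as the scaling, 9 members were called lower in NEUR against UNDIF in place of 5. By its construction that scaling moves every gene alike, and it shifted the median of all genes by -0.139 in NEUR against UNDIF, -0.118 in FT671_NEUR against DMSO_NEUR and -0.27 in FT671_NEUR against UNDIF. The split of all genes then became 4455 higher and 6281 lower, 4583 and 5893, and 4789 and 6750, against 5376 and 5541, 5347 and 5280, and 5863 and 5848 as reported. The member median moved with it, from 0.66, 0.90 and 1.41 to 0.52, 0.78 and 1.14. Genes called in DMSO_NEUR against NEUR numbered 53 with limma, 67 with edgeR, 111 with DESeq2 and 0 with these 2 groups only, and none was a member. No pairing by replicate number was seen, as 0 of 18 same-number pairs had deviations correlated above 0.1 (-0.172 to 0.069). Different-number pairs ran up to 0.197, so this measure cannot decide on a weak pairing. With the replicate block 34 members were called higher and 5 lower in NEUR against UNDIF, and 40 and 4 in FT671_NEUR against DMSO_NEUR. The block gave 0 and 0 in DMSO_NEUR against NEUR and 40 and 3 in FT671_NEUR against UNDIF. With 3 libraries a group, differences of about the SE could not be detected, and larger ones were missed too, such as that of CLN3 in NEUR against UNDIF (0.36, SE 0.18, adjusted p = 0.0724 in limma). SEs were widest in the low-count genes CLN3, TFEB and IDUA.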

Other observations

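FT671-treated cells were also set against undifferentiated cells for the further gene lists, beside 88.0% of all genes that passed in limma (44.0% higher and 43.9% lower). Of 33 other lysosomal proteins, 28 were higher and 3 lower, with a median log2 fold change of 1.00. NAAA differed most, with 380.5 ± 10.7 normalized counts against 36.79 ± 6.43 (SD, n = 3), followed by MAN2B2 at 3191 ± 54.3 against 413.0 ± 37.1. Of 16 other V-ATPase subunits, 14 were higher and 2 lower (median 0.94). ATP6V1B1 stood at 244.7 ± 11.7 against 13.2 ± 2.51, and ATP6V1G2 was lower by 2.27 ± 0.16 on the log2 scale. Autophagy genes gave 29 higher and 2 lower of 33 (median 0.83), with MAP1LC3A at 1010 ± 72.2 against 153.5 ± 23.9. Mannose 6-phosphate tagging and sorting gave 13 higher and 4 lower of 18 (median 0.74), and SORL1 was at 695.7 ± 12.4 against 4306 ± 173. The mTORC1, Ragulator and MiT/TFE list gave 15 higher and 3 lower of 20 (median 0.42), and MITF was at 143.2 ± 13.2 against 8.49 ± 1.97.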
